A study of Trametes versicolor and Gelatoporia subvermispora with 30 samples.

Results

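The white-rot fungus Gelatoporia subvermispora held 91 genes whose transcripts were low on milled poplar wood and well expressed in each of 4 cultures fed cellobiose. They were chosen by measured values: the gene carried a CERSUDRAFT_ locus tag, its mean level was at least 10 CPM in all 4 cellobiose cultures, each of those means was at least 5 times the poplar mean, and the means with 4-hydroxybenzoic acid (4HBA) and with syringic acid stayed below 2 times that on cellobiose alone. CPM here is the read count of a gene relative to the size of its library, after scaling between libraries. The files list 12313 genes of the fungus, 12203 of them by a CERSUDRAFT_ tag. Of the 10751 tagged genes with enough counts for testing, 6868 reached 10 CPM in the 4 cultures, 102 of those were also 5 times above poplar, and the limit on the aromatic acids removed 11 more. Another 1453 genes were too low to be tested and could not have been members.

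The cultures, with 3 libraries each, were G. subvermispora mycelium on milled poplar (2 g per 25 mL) with no cellobiose added, on 5 g per litre cellobiose with 25 mg of lignin isolated from poplar in 25 mL, on the same cellobiose with 2 mM syringic acid, on the same cellobiose with 2 mM 4HBA, and on the cellobiose alone. All were grown from homogenised seed cultures in one defined minimal medium. The study also holds the same 5 cultures of Trametes versicolor. Nothing in the labels says whether replicates were separate cultures, so p-values measure the spread between these libraries, which may be technical.

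White-rot fungi live on wood, from which they release sugars with secreted hydrolases while oxidising lignin with secreted peroxidases and laccases. Cellobiose is the soluble disaccharide that cellulases set free, so the cellobiose cultures offer a ready sugar while the poplar culture offers polymers. Syringic acid and 4HBA are aromatic acids of the kind that lignin yields, differing by the methoxy groups that flank the hydroxyl of syringic acid. The files give a tag and a gene number for each member and no product, so no member can be assigned a function here.

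Gene counts per library ranged from 24.7 M to 50.3 M. In the 3 cellobiose libraries and 4HBA replicate 1 the 10 most abundant genes took 32.7% to 43.5% of counts, against 4.07% to 7.95% in the other 11. Comparisons of lignin with syringic acid stay within 1 of these library types, while those of lignin with cellobiose cross them. The sample titles also hold 2 number series, one for lignin and syringic acid and one for poplar, 4HBA and cellobiose, and the labels do not say what the series mark. Of the tested comparisons, lignin against syringic acid alone stays within a series, and in the other 3 the series and the culture cannot be told apart. The members together took 0.0839% to 0.0959% of counts in the poplar libraries, 2.54% to 3.19% with lignin, 2.76% to 3.23% with syringic acid, 0.774% to 2.43% with 4HBA and 1.64% to 1.82% on cellobiose. These are shares of unscaled counts, of which the 10 most abundant genes left less in 1 library type, so they are not compared between types. After scaling, the median log2 change over members was -0.38 with lignin against cellobiose. In bulk mycelium, fewer cells expressing a gene and less RNA per cell cannot be told apart.

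The gap between poplar and the other cultures was wide for most members. Every poplar library lay below each of the 12 other libraries in all 91, a separation that 27.9% of the 10860 tested genes also showed. The rule used these values, so they are a description with no test. The lowest of the 4 other means was at a median of 10.1 times the poplar mean, with 48 members at or above 10 times and 18 at or above 20 times. Against cellobiose alone the median poplar level was 18.2-fold lower, against lignin 15.2-fold, against 4HBA 14.1-fold and against syringic acid 12.8-fold. The lignin and syringic acid libraries share the library type of the poplar ones, so the gap to them does not cross types, though it crosses the number series, within which poplar stands with 4HBA and cellobiose. Without 4HBA replicate 1 in the fit the rule gave 88 genes, 86 of them among the 91. The poplar mean was below 5 CPM in 57 members and below 1 CPM in 10.

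**Figure D1:**
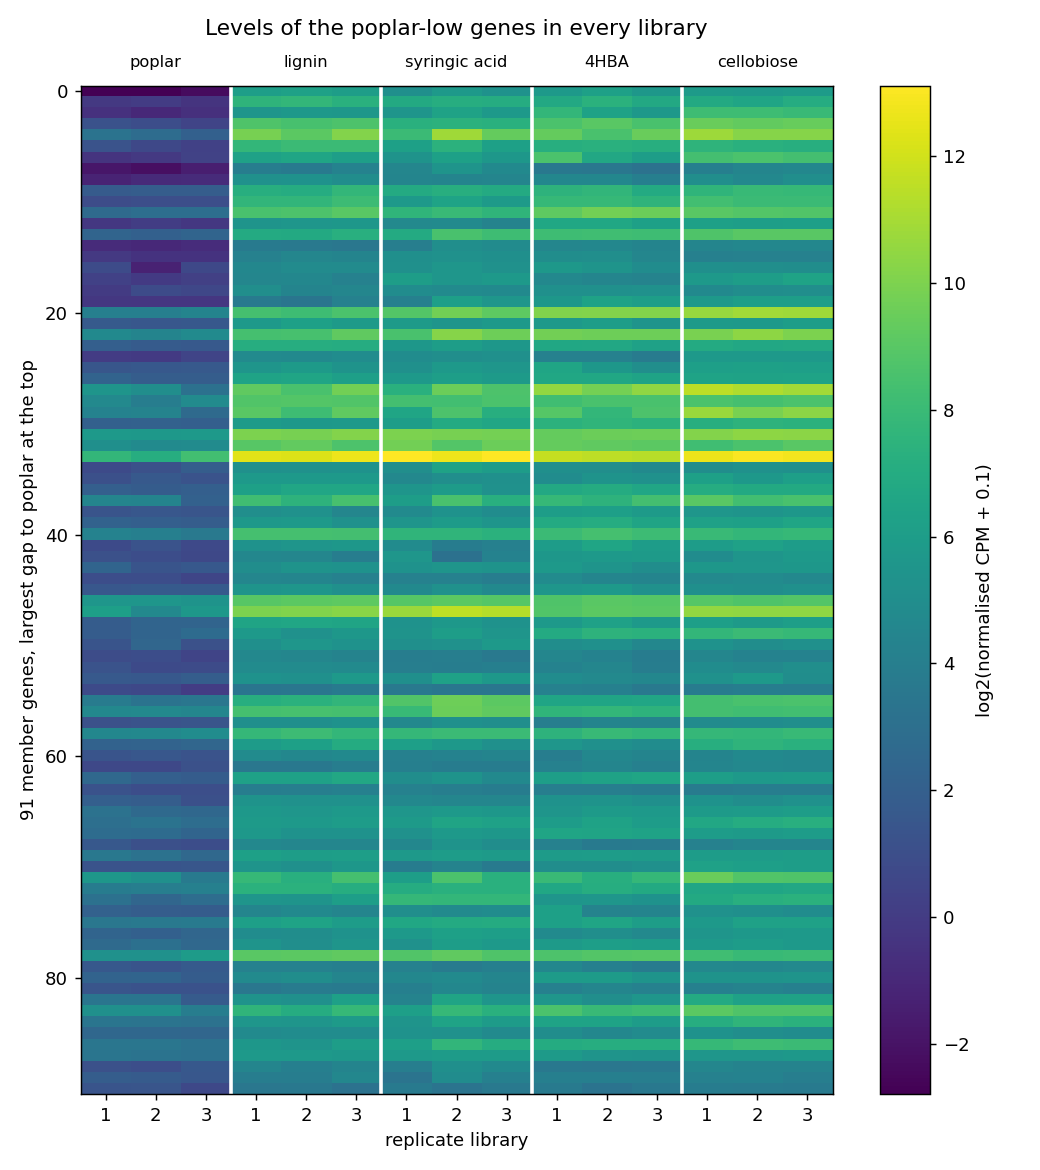
Levels of the 91 members in all 15 libraries, as log2(normalised CPM + 0.1) in colour, with 1 row per gene, the gene with the largest gap at the top, and 3 replicate columns per culture from poplar at the left to cellobiose at the right. The poplar columns are darkest in every row, and 48 rows have a gap of at least 10 times.

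CERSUDRAFT_77755 came nearest to silence. It had 2, 2 and 4 reads in the poplar libraries, or 0.0442, 0.0491 and 0.0967 CPM, where 3 reads correspond to 0.0664 to 0.0736 CPM. It stood at 70.8, 77.7 and 66.9 CPM in lignin cultures, 35.4, 53.3 and 38.9 CPM in syringic acid cultures, 56.6, 76.2 and 49.2 CPM in 4HBA cultures and 58.7, 56.1 and 59.9 CPM on cellobiose. The lowest of these means, with syringic acid, was 672 times the poplar mean, with a 95% Poisson interval of 344 to 1568 for the poplar reads that covers counting error only. The gene was thus close to its detection limit on wood and at 35.4 CPM or more in each of the other 12 libraries.

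CERSUDRAFT_94562 was the next by gap. It had 0.818, 0.932 and 0.652 CPM on poplar, 184, 217 and 160 CPM in lignin cultures, 117, 139 and 131 CPM in syringic acid cultures, 112, 167 and 110 CPM in 4HBA cultures and 119, 94.5 and 131 CPM on cellobiose. The smallest gap, to cellobiose, was 143 times, and the lignin libraries were at the upper end, overlapping with 4HBA and lying above syringic acid and cellobiose.

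CERSUDRAFT_77089 had 2.19, 1.82 and 1.26 CPM on poplar, 420, 359 and 401 CPM in lignin cultures, 161, 169 and 158 CPM in syringic acid cultures, 393, 526 and 372 CPM in 4HBA cultures and 699, 622 and 674 CPM on cellobiose. Its levels fell into 3 tiers above poplar, with syringic acid lowest, lignin and 4HBA overlapping in the middle, and cellobiose on top. CERSUDRAFT_88396, with a gap of 65.7 times, had poplar libraries at 2.32, 1.47 and 1.11 CPM and its highest mean with lignin, at 252 CPM. CERSUDRAFT_115737 had 0.177, 0.123 and 0.266 CPM on poplar, from 8, 5 and 11 reads, and its other means ran from 10.8 CPM in 4HBA cultures to 30.7 CPM in syringic acid cultures.

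In CERSUDRAFT_72251 and CERSUDRAFT_70259 the 4HBA libraries disagreed along the library types. CERSUDRAFT_72251 had 0.597, 0.417 and 0.556 CPM on poplar, 45.8, 52.3 and 49.0 CPM in lignin cultures, 45.7, 81.4 and 54.1 CPM in syringic acid cultures, 213, 83 and 51.2 CPM in 4HBA cultures and 289, 287 and 251 CPM on cellobiose. CERSUDRAFT_70259 had 0.641, 0.809 and 1.16 CPM on poplar, 77.4, 94.3 and 68.0 CPM in lignin cultures, 42.1, 76.8 and 48.9 CPM in syringic acid cultures, 395, 105 and 66.7 CPM in 4HBA cultures and 328, 388 and 328 CPM on cellobiose. In both, 4HBA replicate 1 sat near the cellobiose libraries and replicates 2 and 3 nearer to lignin. Such a gap of more than 2-fold between replicate 1 and the mean of the other two occurred in 4 members, each time with replicate 1 higher, the remaining pair being CERSUDRAFT_81090 and CERSUDRAFT_115080. Over all 91, the median log2 ratio of replicate 1 to the mean of the other replicates was 0.04. The 4 are 4.40% of members, beside 0.759% of the 6849 other tested genes with at least 10 CPM in the 4 cellobiose cultures.

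**Figure D2:**
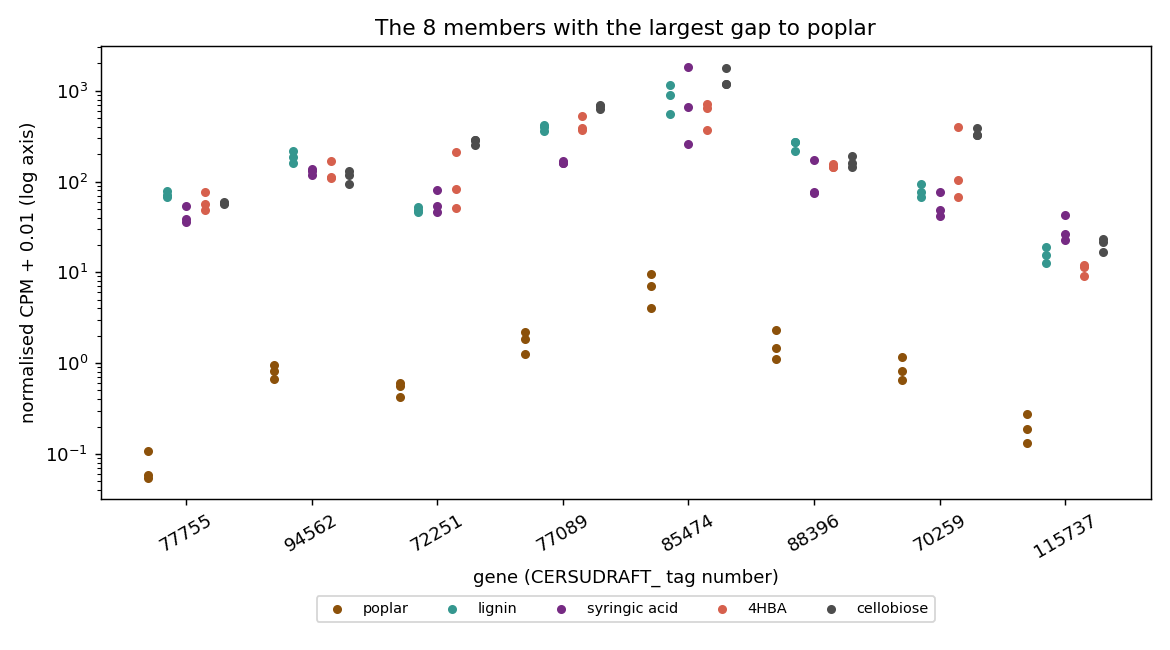
Normalised CPM + 0.01 on a log axis for the 8 members with the largest gap, each point being 1 library, with poplar at the left of each gene and cellobiose at the right. All 24 poplar points lie below 10 CPM, and in CERSUDRAFT_72251 and CERSUDRAFT_70259 the highest 4HBA point lies near the cellobiose points.

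The members that took most counts on cellobiose kept a measurable level on wood. CPM are not corrected for gene length, which the files do not give, so levels are compared between cultures and not between genes. CERSUDRAFT_79669 had 217, 138 and 320 CPM on poplar, 5309, 5016 and 6608 CPM in lignin cultures, 8831, 6570 and 8826 CPM in syringic acid cultures, 3281, 2914 and 2744 CPM in 4HBA cultures and 6376, 8428 and 7253 CPM on cellobiose. The 4HBA libraries were the lowest of the 4 cellobiose cultures, and their mean was 13.3 times that on poplar.

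CERSUDRAFT_85474 combined a high level with a large gap and a wide replicate spread. It had 9.55, 7.04 and 4.08 CPM on poplar, 906, 559 and 1167 CPM in lignin cultures, 262, 1848 and 664 CPM in syringic acid cultures, 651, 365 and 712 CPM in 4HBA cultures and 1768, 1186 and 1199 CPM on cellobiose. The gap was 83.6 times, and the 3 syringic acid libraries spanned the whole range of the other cellobiose cultures.

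CERSUDRAFT_136606 and CERSUDRAFT_89943 had their highest levels on cellobiose alone. CERSUDRAFT_136606 averaged 29.0 ± 18.4 CPM on poplar, 604 ± 237 CPM in lignin cultures, 430.0 ± 286 CPM in syringic acid cultures, 1278 ± 330 CPM in 4HBA cultures and 2381 ± 503 CPM on cellobiose (SD, n = 3 each). CERSUDRAFT_89943 averaged 15.2 ± 7.54 CPM on poplar, 476 ± 169 CPM in lignin cultures, 213 ± 165 CPM in syringic acid cultures, 367 ± 136 CPM in 4HBA cultures and 1324 ± 352 CPM on cellobiose (SD, n = 3 each). CERSUDRAFT_117711 averaged 25.2 ± 4.24 CPM on poplar, 432 ± 141 CPM in lignin cultures, 783 ± 400.0 CPM in syringic acid cultures, 798 ± 44.3 CPM in 4HBA cultures and 1112 ± 197 CPM on cellobiose (SD, n = 3 each), with 1 syringic acid library at 1180.3 CPM.

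CERSUDRAFT_110283 was tight in comparison, at 52.8, 51.8 and 54.0 CPM on poplar against 1140, 1353 and 1323 CPM on cellobiose, with lignin and syringic acid between 894 and 1123 CPM and 4HBA between 639 and 776 CPM.

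Some members had similar means in all 4 cellobiose cultures. CERSUDRAFT_117946 had 2.26, 1.84 and 1.98 CPM on poplar, 15.6, 16 and 17.5 CPM in lignin cultures, 18.0, 16.2 and 14.5 CPM in syringic acid cultures, 16.3, 16 and 14.7 CPM in 4HBA cultures and 13.8, 15.4 and 15.6 CPM on cellobiose. The highest of its 4 means was 1.10 times the lowest, and the libraries of these cultures overlapped. CERSUDRAFT_113192, CERSUDRAFT_85618 and CERSUDRAFT_112373 had ratios of 1.16, 1.18 and 1.18, beside gaps to poplar of 8.08, 5.02 and 10.1 times. The likeness in CERSUDRAFT_85618 is of means only, since its syringic acid libraries were at 10.1, 30.5 and 17.5 CPM and its lignin libraries at 15.5, 15.5 and 23.9 CPM.

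The 5-fold threshold cut through a continuous range. Just inside it lay CERSUDRAFT_104083, CERSUDRAFT_85618 and CERSUDRAFT_109896, whose lowest other mean was 5.01, 5.02 and 5.06 times the poplar mean. Just outside lay CERSUDRAFT_111905, CERSUDRAFT_155529 and CERSUDRAFT_70635, at 4.97, 4.96 and 4.92 times.

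Replicates of the members scattered more than those of other genes. The median coefficient of variation over members was 17.2% on poplar, 13.5% with lignin, 18.0% with syringic acid, 15.2% with 4HBA and 9.70% on cellobiose. Over the 6849 other tested genes with at least 10 CPM in the 4 cellobiose cultures it was 9.05%, 5.47%, 6.85%, 7.52% and 4.70% in the same cultures. The sets were not matched for level. On poplar the rule itself held members low, at a median of 3.50 CPM, where counting error is larger. Members were at their highest most often on cellobiose alone, which held the top mean in 34, followed by syringic acid in 21, lignin in 19 and 4HBA in 17. The limit on 4HBA and syringic acid bears on that order, and both ratios to cellobiose are given only as a description: the median log2 ratio was -0.46 for syringic acid and -0.23 for 4HBA, with 20 and 14 members at least 2-fold lower than on cellobiose.

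Differences among the cellobiose cultures between which the rule set no ratio were tested with edgeR's quasi-likelihood test. Benjamini-Hochberg adjustment ran over all 10860 genes, and a gene was called at an adjusted p below 0.05. All tested genes, whose shares stand beside those of members, include 3883 tagged genes under 10 CPM in at least 1 of the 4 cultures. Shares called were not matched for level, so a higher share of members called in both directions is not read as a trait of members. The floors of 10 CPM and of 5 times poplar still limit how low a member can go in each culture. The cap on the acids favours genes high on cellobiose and leaves out genes high with an acid. CERSUDRAFT_83086 was left out at 701 CPM with syringic acid and 25.5 CPM on cellobiose, and CERSUDRAFT_140626 at 29.2 CPM with 4HBA and 13.7 CPM on cellobiose. Comparisons that involve an acid are thus limited by the cap as well, and so is lignin against cellobiose. Of the 11 genes that the cap left out, CERSUDRAFT_128029, CERSUDRAFT_86307 and CERSUDRAFT_117333 had a lower mean with lignin than on cellobiose. The others had a higher one. With lignin, 36 of the 91 members were lower than on cellobiose alone and 6 higher, or 39.6% and 6.59%, while 22.8% of all tested genes were lower and 24.5% higher. The median log2 change was -0.38 over members and 0.01 over all tested genes. Because the cap shapes this balance, the excess of lower members is not read as a trait of poplar-low genes. Counts without the cap are given at the end.

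This comparison crosses library types. With library type as a term in the fit, 12 of the 91 members were lower and 2 of the 91 higher. Among all tested genes 6.09% were lower and 5.26% higher. The median log2 change over members was -0.27. That term rests on 4HBA replicate 1.

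CERSUDRAFT_86951 showed the lignin difference most clearly. It had 336, 285 and 395 CPM in lignin cultures and 1630, 1926 and 1855 CPM on cellobiose, with poplar at 17.0, 16.6 and 21.0 CPM. The lignin libraries lay below the cellobiose libraries without overlap (log2 change -2.41, SE 0.20, adjusted p = 1.71e-06), and the change was -2.45 (adjusted p = 0.00257) with the library type term. CERSUDRAFT_117706, the next gene by number, had 48.4, 43.2 and 66.6 CPM in lignin cultures and 232, 291 and 264 CPM on cellobiose (log2 change -2.31, SE 0.28, adjusted p = 2.44e-05).

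CERSUDRAFT_115038 had 52.9, 37.4 and 50.1 CPM in lignin cultures and 214, 261 and 235 CPM on cellobiose, again without overlap. Its log2 change was -2.34 (SE 0.23, adjusted p = 6.09e-06), and it held with the library type term at -2.83 (adjusted p = 0.0021). CERSUDRAFT_72251, described above, changed by -2.49 (SE 0.38, adjusted p = 0.000154) in the whole fit and by -0.82 (adjusted p = 0.154) with the term.

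Among the 6 members higher with lignin, CERSUDRAFT_110439 had 533, 550 and 590 CPM in lignin cultures and 295, 241 and 267 CPM on cellobiose (log2 change 1.06, SE 0.18, adjusted p = 0.000317). CERSUDRAFT_94562, CERSUDRAFT_116630 and CERSUDRAFT_95180 rose by 0.71, 0.65 and 0.55 on the log2 scale. With the library type term none of these 4 was called, at adjusted p values of 0.105, 0.408, 0.265 and 0.769. CERSUDRAFT_95180 also missed the threshold without cellobiose replicate 2 (adjusted p = 0.126), cellobiose replicate 3 (adjusted p = 0.1) or lignin replicate 3 (adjusted p = 0.165).

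**Figure D3:**
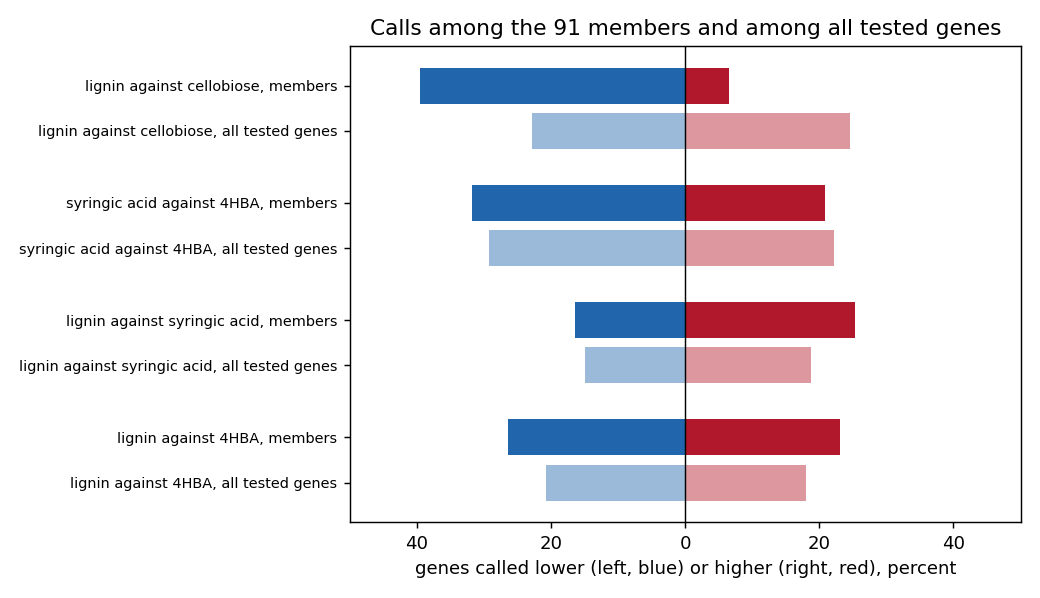
Percent of genes called lower (blue, left) or higher (red, right) by edgeR in each of 4 comparisons, for the 91 members (dark) and all 10860 tested genes (pale). In lignin against cellobiose 39.6% of members were lower and 6.59% higher, and in the other 3 comparisons the bars of members and of all genes are closer in length.

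Syringic acid and 4HBA were given at the same 2 mM, and members differed between them in both directions. With syringic acid 19 members were higher and 29 lower than with 4HBA, or 20.9% and 31.9%, near the 22.2% and 29.3% of all tested genes. The cap on the acids bears on the shares of members. Without 4HBA replicate 1 the counts were 19 and 23, and 42 calls in 91 members stood beside 49.3% of all tested genes.

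CERSUDRAFT_84241 had 437, 769 and 545 CPM in syringic acid cultures and 95.3, 93.3 and 97.2 CPM in 4HBA cultures. The libraries did not overlap (log2 difference 2.62, SE 0.19, adjusted p = 2.74e-07), while its cellobiose libraries lay between, at 333, 368 and 394 CPM. CERSUDRAFT_78979 had 1690, 3109 and 2534 CPM in syringic acid cultures and 435, 538 and 518 CPM in 4HBA cultures (log2 difference 2.30, SE 0.30, adjusted p = 3.12e-05).

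CERSUDRAFT_115739 had 222, 214 and 215 CPM in syringic acid cultures and 45, 47.7 and 39.5 CPM in 4HBA cultures (log2 difference 2.30, SE 0.19, adjusted p = 7.07e-07). CERSUDRAFT_115737 was higher by 1.52 (SE 0.23, adjusted p = 8.90e-05). A single gene number lies between these genes.

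In the other direction, CERSUDRAFT_117002 had 25.8, 27.8 and 19.8 CPM in syringic acid cultures and 100.4, 102 and 76.9 CPM in 4HBA cultures. It was the sharpest of the members lower with syringic acid, without overlap (log2 difference -1.93, SE 0.13, adjusted p = 1.46e-07). CERSUDRAFT_111918 had 196, 258 and 194 CPM in syringic acid cultures and 580, 846 and 740 CPM in 4HBA cultures (log2 difference -1.74, SE 0.16, adjusted p = 1.99e-06). CERSUDRAFT_47630 and CERSUDRAFT_106940 were lower by log2 differences of -1.83 and -1.69.

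The remaining 43 members were not called between both acids. For 33 of them the 95% interval of the difference lay wholly within 2-fold in either direction, and for 10 it reached past 2-fold, so that for those a larger difference was not resolved. In CERSUDRAFT_117946 the difference was 0.05 on the log2 scale, with a 95% interval of -0.16 to 0.26.

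Lignin and syringic acid share a library type and a number series. With lignin 23 members were higher and 15 lower than with syringic acid, or 25.3% and 16.5%, beside 18.7% and 15% of all tested genes. The cap on the acids shapes this balance. Of the 11 genes it left out, CERSUDRAFT_83044 and CERSUDRAFT_140626 had a higher mean with lignin than with syringic acid. The others had a lower one, such as CERSUDRAFT_128029 at 60.8 and 437 CPM. The excess of members higher with lignin is therefore not read as a trait of poplar-low genes. CERSUDRAFT_106940 had 202, 206 and 280 CPM in lignin cultures and 55.5, 86.2 and 59.3 CPM in syringic acid cultures (log2 difference 1.78, SE 0.17, adjusted p = 6.03e-06). Its libraries in these cultures did not overlap. CERSUDRAFT_114144, CERSUDRAFT_95180 and CERSUDRAFT_119197 were higher with lignin by 1.45, 1.42 and 1.30.

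CERSUDRAFT_115739 was lower with lignin, at 44.8, 43.0 and 70.0 CPM against 222, 214 and 215 CPM in syringic acid cultures (log2 difference -2.04, SE 0.19, adjusted p = 5.56e-06). CERSUDRAFT_84241, CERSUDRAFT_112781 and CERSUDRAFT_117706 were lower by log2 differences of -1.77, -1.38 and -1.38. CERSUDRAFT_115739 and CERSUDRAFT_84241 were thus above both other additions with syringic acid, by the comparisons with 4HBA and with lignin, which share the syringic acid libraries.

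Against 4HBA, lignin had 21 members higher and 24 lower, or 23.1% and 26.4%, beside 18% and 20.7% of all tested genes. Without 4HBA replicate 1 the counts were 14 and 20 of the 91 members, a share called near the 36.4% of all tested genes. CERSUDRAFT_82321 had 12.8, 10.4 and 18.2 CPM in lignin cultures and 48.5, 81.8 and 68.3 CPM in 4HBA cultures (log2 difference -2.26, SE 0.37, adjusted p = 0.000421). CERSUDRAFT_86951, CERSUDRAFT_115038 and CERSUDRAFT_118501 were lower by log2 differences of -1.73, -1.71 and -1.66.

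The largest differences upward were 1.21 in CERSUDRAFT_126869, 1.18 in CERSUDRAFT_78979 and 0.93 in CERSUDRAFT_97470. CERSUDRAFT_79669 was called at 0.92 (adjusted p = 0.0425), but not without 4HBA replicate 2 (adjusted p = 0.0892), 4HBA replicate 3 (0.0943), or lignin replicate 1 (0.0816), 2 (0.0711) or 3 (0.134), nor with these 2 groups fitted alone (0.121).

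Some members carried neighbouring gene numbers, and most did not. Another member lay within 2 numbers of 19 of the 91, or 20.9%, while 2.83% of the 10769 other tested genes had a member that near. Next to each other by number were 12 members, or 13.2%, beside 1.49% of the others. In fungi, genes that act in one pathway can lie side by side in the genome. The files hold no coordinates for this fungus, so the meaning of the numbers was checked in T. versicolor, whose gene table has them. There, 98.8% of 14554 pairs with consecutive numbers were in ascending order of start position, with a median gap of 694 bases between the genes. Where the sequence pieces of the G. subvermispora assembly end is not known from the files, and adjoining genes may share reads.

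The 19 members formed 9 runs, 8 of 2 genes and 1 of 3. The run of 3 was CERSUDRAFT_77755, CERSUDRAFT_77756 and CERSUDRAFT_119197, with the poplar mean at 0.0633, 4.41 and 3.42 CPM and the cellobiose mean at 58.3, 66.4 and 113 CPM. All 3 were higher with lignin than with syringic acid, by log2 differences of 0.76, 1.09 and 1.30, and all 3 were lower with syringic acid than with 4HBA. CERSUDRAFT_119195, which lies between the last 2, was at 10.8 CPM on poplar and 26.0 CPM on cellobiose and did not meet the rule.

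CERSUDRAFT_86951 and CERSUDRAFT_117706 adjoin by number, as do CERSUDRAFT_118501 and CERSUDRAFT_118502. All 4 genes were lower with lignin than with cellobiose, syringic acid and 4HBA. CERSUDRAFT_118501 had 60.1, 52.2 and 57.1 CPM in lignin cultures and 144, 179 and 165 CPM on cellobiose, and CERSUDRAFT_118502 had 121, 117 and 151 CPM in lignin cultures and 422, 537 and 528 CPM on cellobiose. Neither pair of groups overlapped, and the log2 changes were -1.53 and -1.93.

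CERSUDRAFT_101335 and CERSUDRAFT_101338, 2 numbers apart, had closely parallel levels. The means of CERSUDRAFT_101335 were 4.01 CPM on poplar, 48.6 CPM in lignin cultures, 50.8 CPM in syringic acid cultures, 115 CPM in 4HBA cultures and 81.8 CPM on cellobiose. Those of CERSUDRAFT_101338 were 2.56, 31.0, 32.6, 66.2 and 46.6 CPM in the same cultures. Both were called lower with lignin than with 4HBA and cellobiose, and lower with syringic acid than with 4HBA. Between CERSUDRAFT_115737 and CERSUDRAFT_115739 lies CERSUDRAFT_115738, with means of 0.652 CPM on poplar, 218 CPM in syringic acid cultures and 35.8 CPM on cellobiose, one of the 11 genes that the cap on the acids left out.

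All members of a run were called, and in 1 direction, in 3 runs in lignin against cellobiose, 3 in syringic acid against 4HBA, 5 in lignin against syringic acid and 3 in lignin against 4HBA. The other runs held at least 1 member that was not called. How often neighbouring genes outside the runs were called alike was not analysed, so these counts are not read as a trait of the runs. In lignin against cellobiose 36 of the 42 called members were lower, so a shared direction there is read against that share, and the runs were picked after their values were seen. Of the 32 tested genes within 2 numbers outside the runs, 12, or 37.5%, were at least 2-fold lower on poplar than on cellobiose, beside 17.4% of all tested genes, and in 10 the poplar mean was above the cellobiose mean.

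**Figure D4:**
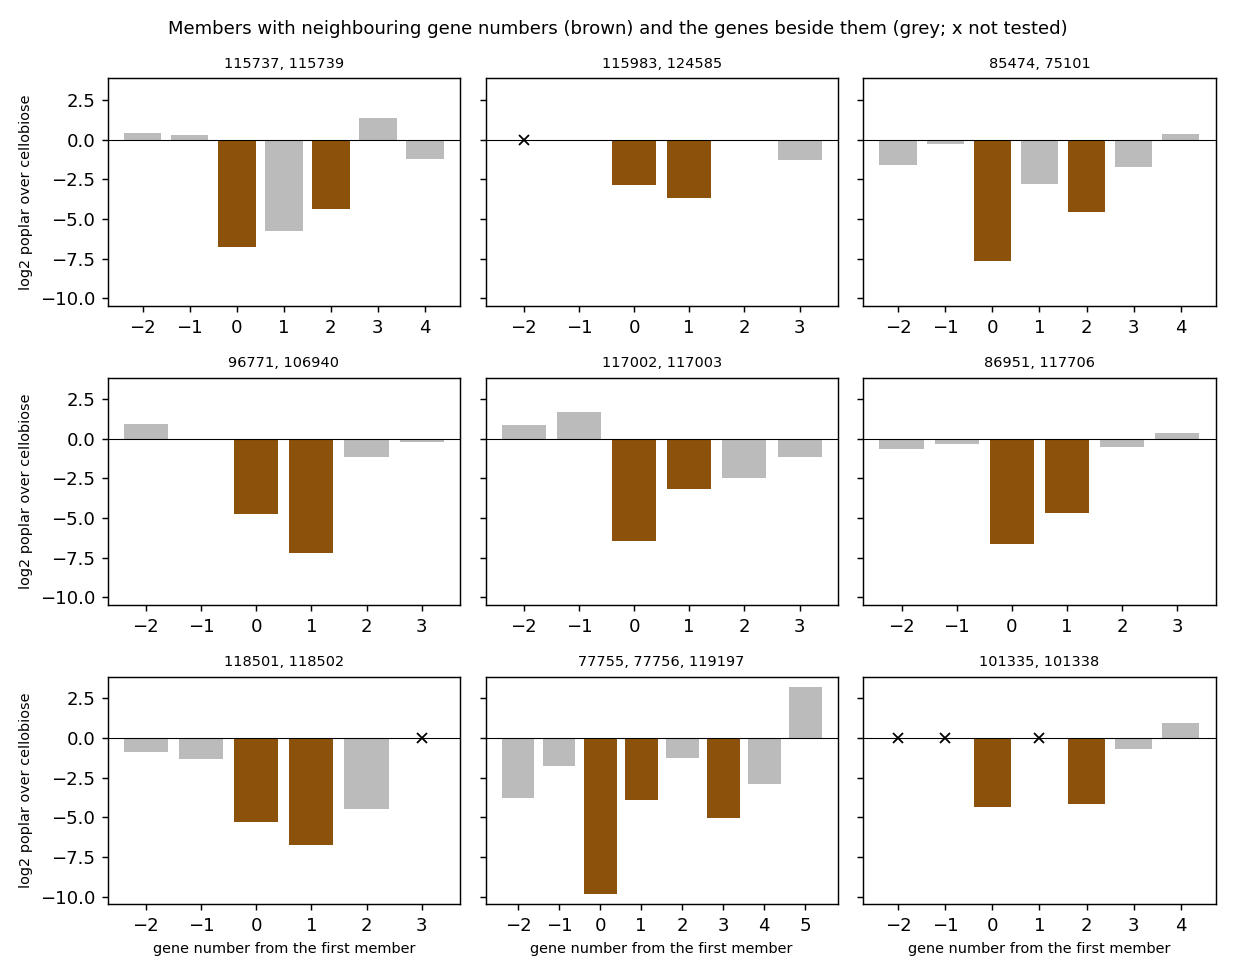
The log2 ratio of the poplar mean over the cellobiose mean for the 9 runs of members (brown) and the genes beside and between them (grey), by gene number counted from the first member of each run. Bars of members reach down to -9.85 in CERSUDRAFT_77755, flanking genes lie on both sides of 0, and a cross marks a gene with too few counts to test. A number with no visible bar holds a gene whose ratio is near 0.

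Of 109 tested genes that the files name by a symbol, Csfet3 was the only one to meet the same numeric conditions. A Fet3 protein in yeast is a multicopper ferroxidase of high-affinity iron uptake. Csfet3 had 44.3, 37.4 and 28.2 CPM on poplar, 692, 626 and 728 CPM in lignin cultures, 306, 521 and 378 CPM in syringic acid cultures, 197, 144 and 221 CPM in 4HBA cultures and 515, 301 and 469 CPM on cellobiose. Its gap of 5.12 times put it just inside the threshold, and its lignin libraries were all above the others.

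The symbol lists described here, grouped by the start of the symbol, leave out other symbols in the files. On poplar against cellobiose 38.4% of all tested genes were lower and 37.7% higher. Of the 13 manganese peroxidases, secreted enzymes that oxidise manganese(II), 9 were higher and 4 lower, and of the 9 heme-thiolate peroxidases 7 were higher and 2 lower. The 8 laccases and ferroxidases, Csfet3 included, had 4 higher, 3 lower and 1 not called. Both lignin peroxidases were called, 1 higher and 1 lower. The higher one, LiP1, was at 0.228 CPM on cellobiose, where 3 reads correspond to 0.137 to 0.172 CPM, and at 0.851 CPM on poplar. LiP2 was at 1134 and 314 CPM. Calls at low levels count alike in these lists, as for MnP13 (higher) and HTP6 (lower), at 0.913 and 1.46 CPM on cellobiose. A list of 18 mating symbols, made up of the CsPh pheromones, the CsSTE3 pheromone receptors and mip, the mitochondrial peptidase gene that often adjoins a mating locus in such fungi, had 11 higher, 4 lower and 3 not called. CcSTE3.6, whose symbol starts differently, is not in that list. The 10 autophagy genes had 5 higher, 2 lower and 3 not called. Of the 2 TOR kinases, which sense nutrients, 1 was lower and 1 not called.

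Under the same numeric conditions 119 tagged genes of T. versicolor and 3 of its symbols, MnP1s, MnP5s and VP2, were low on poplar. Of the 119, 31, or 26.1%, lay within 2 gene numbers of another, beside 2.96% of the other tested genes of that fungus. Which genes of both fungi correspond was not analysed here.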

How the data were processed

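Transcripts were sequenced as stranded, ribosome-depleted total RNA, per the labels' protocols. The deposited values are whole-number read counts per gene; per the submitters' processing notes, FastQC, Bowtie2, Bowtie and HTSeq were used, while the sources used here give no version, setting or genome build. Reads not placed in a gene were 7.84% to 27.9% of counts per G. subvermispora library and were left out. Genes passing edgeR's filterByExpr (10860) were scaled with TMM and fitted across all genes with edgeR 4.0.16 (R 4.3.3), quasi-likelihood F-test, two-sided, 15 libraries with 1 mean per culture; the common biological coefficient of variation was 0.150. Standard errors are the log2 change over the root of F. CPM means and SDs are over 3 libraries. The functions were tested on simulated data. No replicate pair was a copy: chi-square per gene was at least 11.1.

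Members and lists were chosen with earlier results of these data known. Named members are the 8 with the highest cellobiose mean, the 8 with the largest gap, up to 4 per direction and comparison among called members without overlap, 3 on either side of the threshold, the 4 most even, and symbols meeting the conditions; runs by gene number and genes deviating in 4HBA replicate 1 were chosen after their values were seen. Alternatives were RLE and upper-quartile scaling, DESeq2 1.42.0, no filter, both groups alone, no genes above 1% of counts, a library type term, other thresholds and each library left out. For calls, only libraries of the compared groups or of poplar were left out.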

Additional observations from a re-analysis of the deposited data

How the results depend on the processing

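The number of members was 91 as reported, 83 with RLE scaling, 124 with upper-quartile scaling, 89 with no filter on low counts, 87 without genes above 1% of counts, and 85 to 94 when 1 library was left out. It was 191 with a fold threshold of 3, 48 with 10, 161 with a floor of 1 CPM and 38 with 50 CPM. The median log2 gap of the 91, -3.34, was -3.63 with upper quartiles; over all genes that scaling shifted the median of poplar against cellobiose by -0.27. The gap was -3.42 to -3.18 when 1 library was left out.

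The count of called members in lignin against cellobiose, 42, was 14 with library type as a covariate; the cause was not tested. For calls, the library left out was always 1 of the compared groups or of poplar. This gave 34 to 47 in that comparison and 40 to 48 in syringic acid against 4HBA. It gave 35 to 43 in lignin against syringic acid and 33 to 45 in lignin against 4HBA. The other counts of calls stayed within 1.5 times of those reported under every alternative run. Without the cap on the acids, an alternative added after seeing the data, 102 genes gave 11 higher and 37 lower in lignin against cellobiose. Of 511 repeat values for the 32 named differences, 497 had the same direction and call, 14 missed the threshold and 0 changed sign. No paired analysis was possible because the labels give no replicate number that the cultures share. Depth sets a limit of 0.0431 to 0.225 CPM per library for a count of 0, taken as 3 reads.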
